A study of Homo sapiens with 6 samples.

Results

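The 30 genes described here encode subunits of the 3 nuclear RNA polymerases. They were chosen by name, as every gene whose symbol in the platform annotation starts with POLR1, POLR2 or POLR3, out of 17687 named genes. Each was measured by 1 probe set. By the enzyme their proteins belong to, 6 are subunits of RNA polymerase I (Pol I) only, 9 of Pol II only and 9 of Pol III only. A further 2, POLR1C and POLR1D, serve both Pol I and Pol III, and 4, POLR2E, POLR2H, POLR2K and POLR2L, are common to the 3 enzymes. POLR2J4, counted with Pol II, is a transcribed copy of POLR2J with a non-coding transcript in the annotation.

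RNA was measured on 6 Clarion S arrays, with 1 array for each condition of 3 human lines from non-small cell lung cancer. The PC-9 and HCC827 lines, whose EGFR (the epidermal growth factor receptor) is mutated, were each measured after 6 hours with 0.01 µM erlotinib, an inhibitor of the EGFR kinase, and as a control. H322, with wild-type EGFR, was measured after 6 hours with EGF, a ligand of the receptor, at 100 µg/ml in the labels' own unit, and as a control. The growth protocol names TNFa in the medium without saying whether the controls had it, so an effect of TNFa cannot be told apart from that of either agent. The 2 EGFR-mutant lines are the replicates for erlotinib, and EGF has none.

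Pol I makes the precursor of the large ribosomal RNAs, Pol II makes messenger RNAs, and Pol III makes transfer RNAs, 5S ribosomal RNA and other short RNAs. In each enzyme the largest and second-largest subunits form the active centre, and further subunits form an assembly platform, a stalk and RNA cleavage modules. Growth factor signalling through ERK and MYC is known to raise transcription by Pol I and Pol III, the enzymes that supply ribosomes and transfer RNAs. Subunit transcripts, measured here, are not a measure of how active an enzyme is. An array reads the RNA of many cells at once, so a change in every cell and a larger change in some cells cannot be told apart.

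All signals are given as log2(intensity + 1). Background was taken from 612 negative control probe sets, whose 95th percentile lay between 6.92 and 7.47 on the 6 arrays. A signal over that value of its own array counts as above background. The value was 7.35 with erlotinib and 7.34 in the control of PC-9. It was lower on the treated array in HCC827, at 6.92 against 7.27, and in H322, at 7.13 against 7.47. Of the 30 subunits 25 were above background on all 6 arrays, among them 4 of 6 for Pol I, 8 of 9 for Pol II and 7 of 9 for Pol III. The other 5 were POLR1B, POLR1G, POLR2J4, POLR3G and POLR3GL. The 6 epithelial markers EPCAM, CDH1, KRT8, KRT18, KRT19 and CLDN4 were above background on every array, from 12.88 to 17.19. PTPRC, CD3E and CD14 of the leukocyte list, COL1A1, PDGFRB and DCN of the fibroblast list, and PECAM1 and KDR of the endothelial list were below background on every array. CD68, COL1A2, VWF and CDH5 were above it on 5, 5, 1 and 2 arrays.

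The promoters of 5 subunits are shown because their transcripts stand at the ends of the pattern with erlotinib or because they hold CACGTG, the E-box bound by MYC and related factors. They are RefSeq sequences of GRCh38.p14, each the 200 bases before an annotated start, 5′ to 3′ on the strand of the gene, with any CACGTG in capitals. For POLR3C only a start whose 200 bases hold CACGTG is shown, so its E-box was part of the choice. Not every subunit of either kind is shown. POLR3E, with CACGTG in a promoter window described below, and POLR1B, with the lowest mean difference, are left out. POLR1A (chr2:86105887-86106086, minus strand) encodes the largest subunit of Pol I. POLR2A (chr17:7484166-7484365, plus strand) encodes that of Pol II, and POLR3A (chr10:78029516-78029715, minus strand) that of Pol III. POLR1G (chr19:45406444-45406643, plus strand) encodes a subunit of the dimer that Pol I uses in place of TFIIF, and POLR3C (chr1:145824000-145824199, plus strand) a subunit of the heterotrimer through which Pol III contacts its initiation factors.
POLR1A: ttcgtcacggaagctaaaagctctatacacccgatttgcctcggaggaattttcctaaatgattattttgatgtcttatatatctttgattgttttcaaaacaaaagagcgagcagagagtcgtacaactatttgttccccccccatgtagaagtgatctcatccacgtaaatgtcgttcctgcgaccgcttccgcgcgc
POLR2A: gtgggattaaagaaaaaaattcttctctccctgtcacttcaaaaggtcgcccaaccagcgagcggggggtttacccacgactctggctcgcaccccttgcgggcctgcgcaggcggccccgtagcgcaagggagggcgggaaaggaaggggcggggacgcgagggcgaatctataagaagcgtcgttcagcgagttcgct
POLR1G: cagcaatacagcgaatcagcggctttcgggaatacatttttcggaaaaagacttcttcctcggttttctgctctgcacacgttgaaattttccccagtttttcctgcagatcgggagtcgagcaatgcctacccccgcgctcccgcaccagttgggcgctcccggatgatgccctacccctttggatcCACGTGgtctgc
POLR3A: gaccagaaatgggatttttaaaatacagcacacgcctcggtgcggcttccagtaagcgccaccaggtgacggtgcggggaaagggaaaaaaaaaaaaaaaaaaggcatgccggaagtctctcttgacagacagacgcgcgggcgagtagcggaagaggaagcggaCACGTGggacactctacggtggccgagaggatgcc
POLR3C: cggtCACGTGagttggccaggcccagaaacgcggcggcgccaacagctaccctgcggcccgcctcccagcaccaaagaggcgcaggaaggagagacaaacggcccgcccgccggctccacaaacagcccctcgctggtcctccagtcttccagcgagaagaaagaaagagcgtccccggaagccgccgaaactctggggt
In POLR1G the E-box begins 12 bases before the start shown, in POLR3A 35 and in POLR3C 196. RefSeq promoter windows, from 250 bases before to 50 after a start, matched 21 of the 30 subunits, and CACGTG (the same on both strands) lay in those of 4: POLR1G, POLR3A, POLR3C and POLR3E. The 21 subunits had 26 windows, of which 4 held CACGTG, against 7.26% of all windows. Over all genes with a window 8.77% held it. TGACTCA, an AP-1 site searched on both strands, lay in the windows of 0 of the 21 subunits, against 6.05% of all genes. With so few subunits 0 of 21 is close to that share. A match is a run of letters and not a measured binding site.

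**Figure D1:**
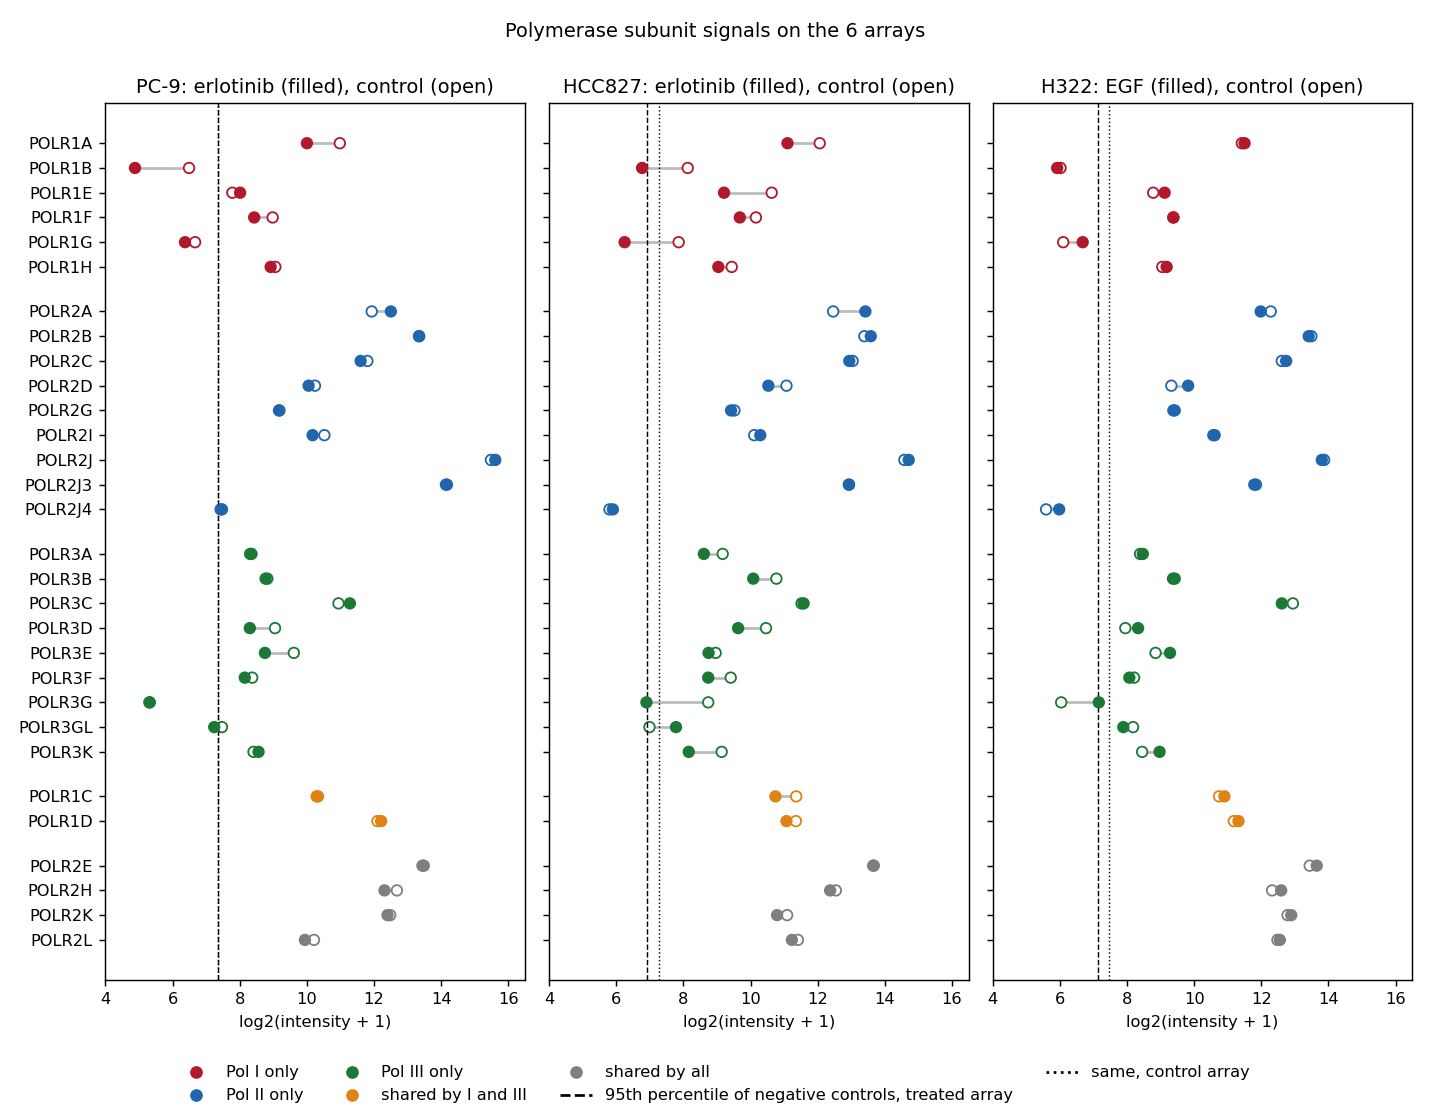
Signal of each subunit as log2(intensity + 1) on the x axis, 1 panel per line, with the treated array as a filled point and the control as an open point. Vertical lines mark the 95th percentile of the negative controls on the treated (dashed) and control (dotted) array. The Pol I points with erlotinib lie left of their controls in HCC827, and POLR2A lies right of its control in PC-9 and HCC827.

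Erlotinib was set against control to see what inhibition of a mutated EGFR does to these transcripts after 6 hours. Limma called 2 of the 30 subunits, POLR1A and POLR1B, both of Pol I and both lower, and 0 higher. Over all genes 0.916% were called lower and 0.565% higher. An unadjusted p under 0.05 was found for 6 of the 30 subunits and for 14.4% of all genes. The median log2 difference of the 6 Pol I subunits was -0.43 in PC-9 and -1.16 in HCC827, while that of the 9 Pol II subunits was 0.01 and 0.11. The 9 Pol III subunits had -0.04 in PC-9 and -0.67 in HCC827. Over the subunits above background on all 6 arrays the Pol I medians were nearer to 0, at -0.35 in PC-9 and -0.72 in HCC827 for 4 subunits. For 8 Pol II subunits they were 0.00 and 0.06, and for 7 Pol III subunits -0.04 and -0.67. All named genes had medians of 0.01 in PC-9 and 0.00 in HCC827.

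**Figure D2:**
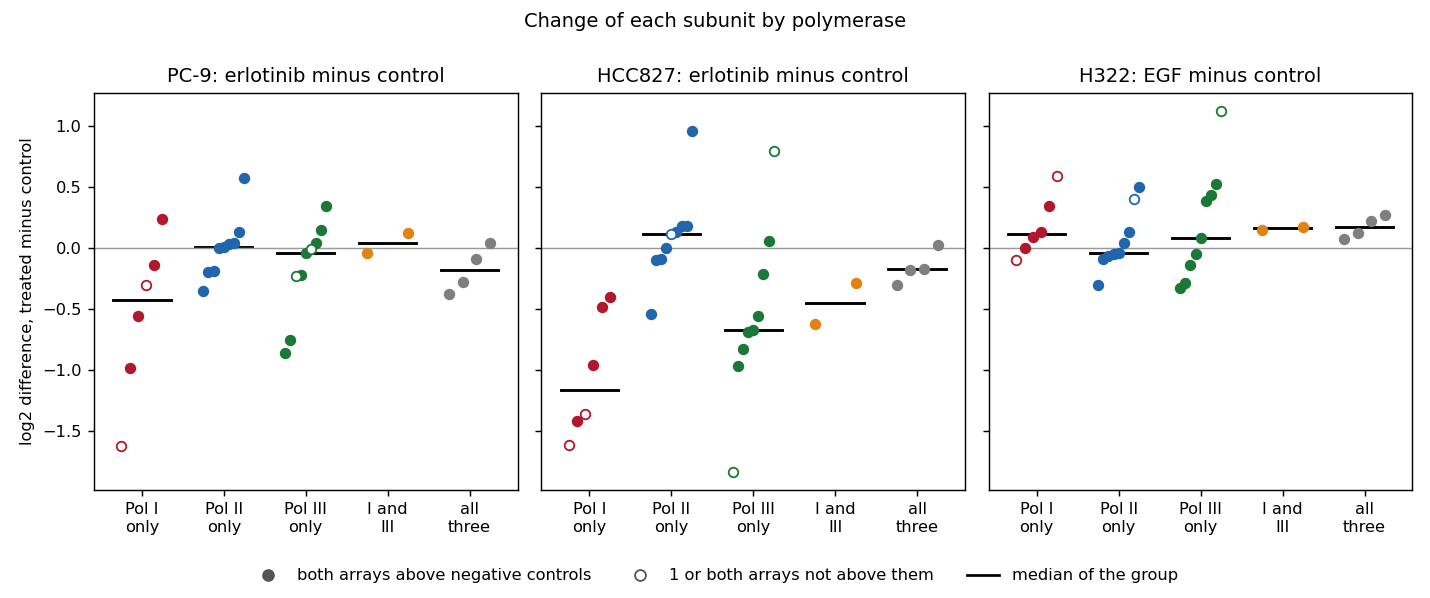
Log2 difference of treated minus control for each subunit (points), grouped by enzyme, in PC-9, HCC827 and H322, with black bars at the group medians. Open points have 1 or both arrays not above background. The Pol I median lies lowest in PC-9 (-0.43) and HCC827 (-1.16), or at -0.35 and -0.72 over its filled points, and the medians in H322 lie between -0.04 and 0.17.

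POLR1A, the catalytic largest subunit of Pol I whose promoter is shown above, had 10.00 with erlotinib against 10.98 in the control of PC-9, and 11.10 against 12.06 in HCC827. Each erlotinib array was lower than the control of its own line, by nearly the same amount, although the 2 erlotinib and 2 control arrays overlap because HCC827 has the higher signal. POLR1A fell by 0.97 ± 0.17 in log2 units (± is the SE from limma, over 2 lines; limma adjusted p = 0.0452), with folds of 1.97 for PC-9 and 1.94 for HCC827. It passed in 4 of 8 alternative fits. In the others limma's adjusted p was 0.0538 with an offset of 16 in place of 1, 0.0625 among genes above background on at least 1 of the 4 arrays, 0.169 with no trend and 1 with no replicate block.

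POLR1B, the second-largest subunit that completes the active centre, fell by 1.49 ± 0.27 (limma adjusted p = 0.049). It had 4.88 with erlotinib against 6.49 in the control of PC-9, both under background, and 6.77 against 8.13 in HCC827, where the control alone was above it. The value that can be measured is thus a decrease of at least 2.31-fold in HCC827. It passed in 2 of 8 alternative fits. With signals under background set to it, the mean difference was -0.60 (limma adjusted p = 0.416).

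The other Pol I subunits did not pass. POLR1F, part of the stalk, had 8.43 with erlotinib against 8.98 in the control of PC-9, and 9.68 against 10.16 in HCC827. Its mean difference of -0.52 ± 0.21 was alike in the lines, at 1.47-fold and 1.40-fold lower (limma adjusted p = 0.326). POLR1H, the subunit that stimulates RNA cleavage, had -0.14 in PC-9 and -0.40 in HCC827 (limma adjusted p = 0.662).

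POLR1E and POLR1G encode the partners of the TFIIF-like dimer of Pol I, and both had their low values in HCC827. POLR1E had 9.21 with erlotinib against 10.63 in the control of HCC827, or 2.68-fold lower, but 8.01 against 7.78 in PC-9, or 1.18-fold higher. POLR1G had 6.25 with erlotinib against 7.86 in the control of HCC827, at least 1.91-fold lower with the erlotinib array under background. In PC-9 it had 6.37 and 6.67, both under background, so no fold is given. Their mean differences were -0.59 ± 0.37 and -0.96 ± 0.36 (limma adjusted p = 0.546 and 0.282).

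In Pol II the largest difference was that of POLR2A. This largest subunit carries the repeated C-terminal domain that is phosphorylated during transcription. It had 12.50 with erlotinib against 11.93 in the control of PC-9, and 13.42 against 12.46 in HCC827. Both erlotinib arrays lay above both controls, the closest being 12.50 against 12.46. The signal was higher by 1.48-fold in PC-9, and by 1.95-fold in HCC827, with a mean of 0.77 ± 0.16 that did not pass (limma adjusted p = 0.0664). It passed in 3 of 8 alternative fits: with arrays centred on their medians (limma adjusted p = 0.0249), under quantile normalization (0.00478) and where dim signals were set to background (0.000204). In the other 5 limma's adjusted p lay between 0.0685 (probe sets averaged) and 1 (no replicate block), and was 0.258 with no trend.

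The partner subunits of Pol II had smaller differences. POLR2B, which forms the active centre with POLR2A, had 13.34 with erlotinib and 13.34 in the control of PC-9, and 13.58 against 13.39 in HCC827. Its mean difference was 0.09 ± 0.13 (limma adjusted p = 0.84). The stalk subunits are POLR2D, at -0.19 in PC-9 and -0.54 in HCC827, and POLR2G, at 0.01 and -0.10. The platform subunit POLR2C had -0.20 and -0.09, and POLR2I, which takes part in start site choice and proofreading, had -0.35 and 0.18. None of these passed in limma, with adjusted p between 0.459 and 0.954.

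POLR2J, another platform subunit, and its copies POLR2J3 and POLR2J4 are close in sequence, so their signals may not be separate measurements. POLR2J had 0.13 in both PC-9 and HCC827, POLR2J3 had 0.03 and 0.00, and POLR2J4 had 0.04 and 0.11 with both HCC827 arrays under background. With erlotinib 0 of the 9 Pol II subunits were 1.5-fold lower in either line. Of all genes 7.19% were in PC-9 and 9.82% in HCC827, and with so few subunits 0 of 9 is close to those shares.

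In Pol III the low values were mostly those of HCC827, and the difference between the lines was not tested. In HCC827 5 of its 9 subunits were lower by 1.5-fold or more, as were 9.82% of all genes. Among subunits above background on all 6 arrays it was 4 of 7, against 8.43% of such genes. In PC-9 it was 2 of 9, POLR3D and POLR3E, against 7.19% of all genes. For Pol I the same counts were 4 of 6 in HCC827 and 2 of 6 in PC-9, POLR1A and the dim POLR1B, and among the Pol I subunits above background 2 of 4 and 1 of 4. An increase of 1.5-fold or more was seen in HCC827 for 2 of the 30 subunits, POLR2A and POLR3GL, and for 10.5% of all genes. In PC-9 it was 0 of 30, against 6.62% of all genes.

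POLR3D and POLR3E form the TFIIF-like dimer of Pol III. POLR3D had 8.30 with erlotinib against 9.05 in the control of PC-9, and 9.63 against 10.46 in HCC827. It was lower in both lines, 1.68-fold and 1.77-fold, with a mean difference of -0.79 ± 0.21 that did not pass (limma adjusted p = 0.135). It passed in 2 of 8 alternative fits, under quantile normalization (limma adjusted p = 0.0416) and where dim signals were set to background (0.0227), and had 0.218 with no trend and 1 with no replicate block. POLR3E had 8.75 with erlotinib against 9.61 in the control of PC-9, 1.82-fold lower, and 8.75 against 8.96 in HCC827, 1.15-fold lower (mean -0.53 ± 0.25, limma adjusted p = 0.392).

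The catalytic subunits of Pol III, POLR3A and POLR3B, were close to their controls in PC-9, at 0.04 and -0.04. In HCC827 POLR3A had 8.61 with erlotinib against 9.17 in the control, and POLR3B had 10.08 against 10.77, or 1.47-fold and 1.62-fold lower. POLR3K, which acts in RNA cleavage and termination, had 8.16 with erlotinib against 9.14 in the control of HCC827, 1.96-fold lower, and 8.56 against 8.41 in PC-9. In the heterotrimer, POLR3F had -0.22 in PC-9 and -0.67 in HCC827, and POLR3C had 0.34 and 0.06. These 5 subunits did not pass (limma adjusted p from 0.47 to 0.737).

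POLR3G and POLR3GL are alternative versions of 1 subunit of Pol III, of which POLR3G is known from stem cells and tumour cells and POLR3GL from most adult tissues. In HCC827 they went in opposite directions. POLR3G had 6.90 with erlotinib against 8.74 in the control, at least 3.51-fold lower with the erlotinib array just under background. POLR3GL had 7.78 with erlotinib against 6.99 in the control, at least 1.43-fold higher with the control under background. In PC-9 POLR3G had 5.31 and 5.32, both under background, and POLR3GL had 7.24 with erlotinib, under background, against 7.47 in the control. Neither passed over both lines, with means of -0.92 ± 0.43 and 0.28 ± 0.32 (limma adjusted p = 0.388 and 0.78).

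**Figure D3:**
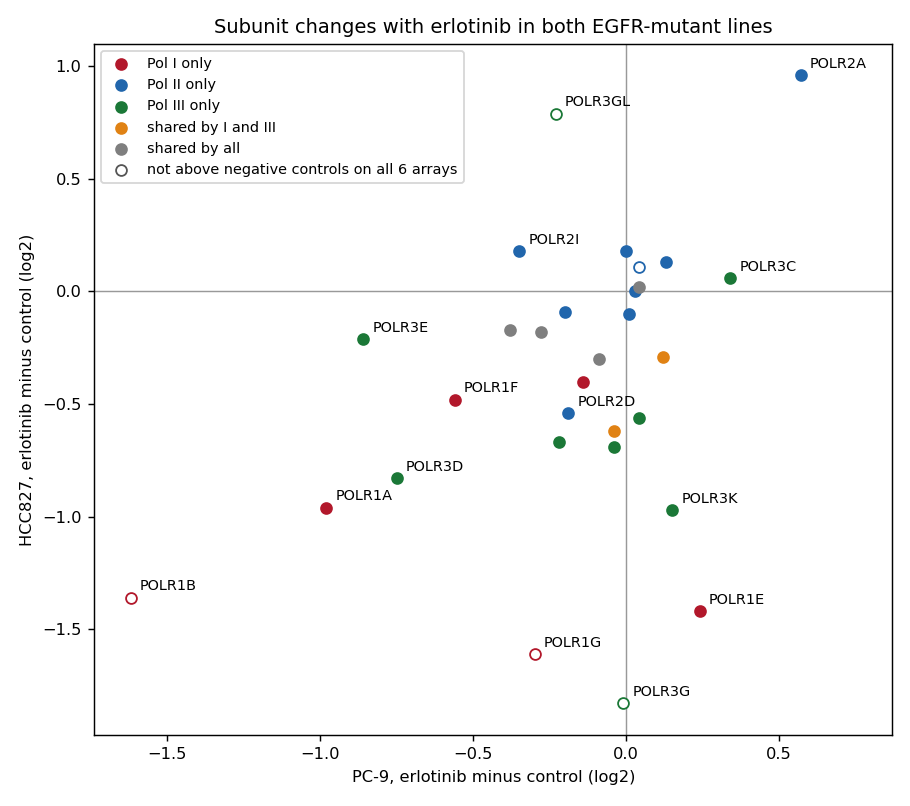
Log2 difference of erlotinib minus control in PC-9 (x axis) and HCC827 (y axis) for the 30 subunits, coloured by enzyme. Open points were not above background on all 6 arrays. POLR1A, POLR1B and POLR3D lie low on both axes and POLR2A high on both, while POLR1E, POLR3G and POLR3K lie low in HCC827 alone.

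None of the shared subunits passed. POLR1C and POLR1D pair in the assembly platform of Pol I and Pol III. POLR1C had 10.29 with erlotinib against 10.33 in the control of PC-9, and 10.74 against 11.36 in HCC827, or 1.54-fold lower. POLR1D had 0.12 in PC-9 and -0.29 in HCC827 (limma adjusted p = 0.538 for POLR1C and 0.891 for POLR1D). The median of this pair was 0.04 in PC-9 and -0.46 in HCC827, where 1 of 2 was 1.5-fold lower, against 9.82% of all genes. Of the 4 subunits common to the 3 enzymes POLR2H, POLR2K and POLR2L were lower in both lines, by means of -0.27, -0.19 and -0.23, and POLR2E had 0.03. None of the 4 passed in limma, with adjusted p between 0.469 and 0.957. In either line 0 of 4 were 1.5-fold lower, against 7.19% of all genes in PC-9 and 9.82% in HCC827.

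Set against each other, the median of Pol I minus that of Pol II was -0.43 in PC-9 and -1.27 in HCC827. Pol III minus Pol II was -0.05 in PC-9 and -0.78 in HCC827, and Pol I minus Pol III was -0.39 and -0.49. Over subunits above background on all 6 arrays Pol I minus Pol II was -0.35 in PC-9 and -0.78 in HCC827, and Pol III minus Pol II was -0.04 and -0.73. Pol I minus Pol III was then -0.30 in PC-9 and -0.05 in HCC827. No test was made of these gaps, since subunits are not replicates and each line has 1 pair of arrays. Over the 30 subunits 16 were lower in both lines, 5 were higher in both and 9 had opposite signs. Of all genes 29.6% were lower in both lines and 30.0% were higher in both. By enzyme, 5 of 6 Pol I, 2 of 9 Pol II and 5 of 9 Pol III subunits were lower in both lines. Among subunits above background on all 6 arrays the count was 13 of 25, against 30.7% of such genes.

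EGF was given to H322, whose receptor is wild-type, and its comparison has 1 array a condition and no test. The differences were small, with medians of 0.11 for Pol I, -0.04 for Pol II and 0.08 for Pol III, beside 0.01 for all genes. The subunits shared by Pol I and Pol III had a median of 0.16 and those common to all enzymes 0.17. A 1.5-fold increase was reached by 2 of 30 subunits, POLR1G and POLR3G, against 3.76% of all genes, and a 1.5-fold decrease by 0 of 30, against 3.49%. Both of these rest on dim signals. POLR1G had 6.68 with EGF and 6.10 in the control, both under background. POLR3G had 7.16 with EGF, just above background, and 6.04 in the control, whose background of 7.47 exceeded both, so no fold is given.

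Among subunits measured above background on both H322 arrays, the highest were in Pol III and Pol II. POLR3K had 8.97 with EGF against 8.45 in the control, 1.44-fold higher, and POLR2D had 9.82 against 9.32, or 1.41-fold. POLR3E had 9.28 with EGF against 8.85 in the control, and POLR3D had 8.33 against 7.95. In Pol I the highest was POLR1E, at 9.12 with EGF against 8.78 in the control. POLR1A had 11.50 with EGF against 11.42 in the control, a difference of 0.09.

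The lowest with EGF were POLR3C, at 12.61 against 12.94 in the control, POLR2A, at 11.98 against 12.28, and POLR3GL, at 7.89 against 8.18. These are the 3 subunits with the highest mean differences with erlotinib, at 0.20, 0.77 and 0.28, though none passed in limma. POLR3C had 0.34 in PC-9 and 0.06 in HCC827. POLR3GL had opposite signs, -0.23 in PC-9 and 0.79 in HCC827, with 1 array of each line above background. The 4 subunits common to all enzymes had values of 0.07 to 0.27 with EGF. Of these POLR2H had 12.59 with EGF against 12.32 in the control, and POLR2E had 13.65 against 13.44.

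The erlotinib and EGF comparisons share no array. Of the 30 subunits 12 were lower in both lines with erlotinib and higher with EGF, and 18.3% of all genes were. Among those above background on all 6 arrays it was 10 of 25, against 21.3% of such genes. The reverse pattern, higher in both lines with erlotinib and lower with EGF, was seen for 3 of 30 (POLR2A, POLR2J and POLR3C), against 17.6% of all genes. POLR1A and POLR1B, called with erlotinib, had 0.09 and -0.10 with EGF. Both H322 arrays of POLR1B were under background, at 5.92 with EGF and 6.02 in the control, so its value is not a measured change.

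**Figure D4:**
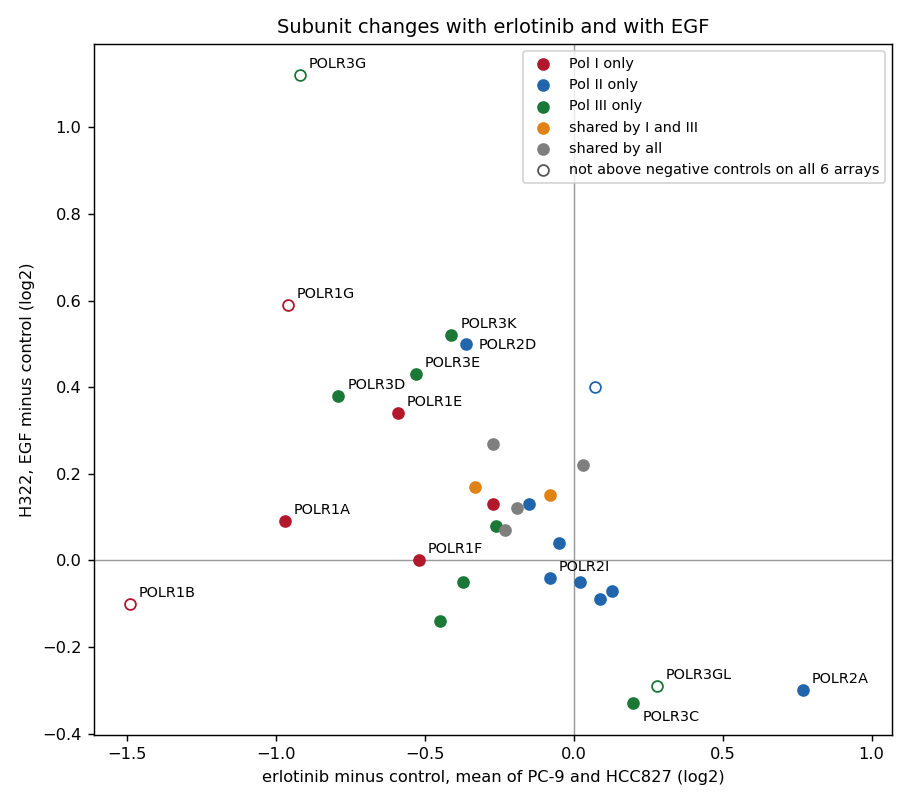
Mean log2 difference of erlotinib minus control in PC-9 and HCC827 (x axis) against the log2 difference of EGF minus control in H322 (y axis), coloured by enzyme. Open points were not above background on all 6 arrays. POLR2A and POLR3C lie at the lower right, POLR3D, POLR3E and POLR3K at the upper left, and POLR1A and POLR1B far left near the zero line of EGF.

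Levels without either agent can be compared between the lines on the 3 control arrays, for the same probe set and with 1 array a line. HCC827 had the highest control signal for 18 of 30 subunits, where it did so for 35.9% of all genes. By enzyme this held for 6 of 6 Pol I, 6 of 9 Pol III and 4 of 9 Pol II subunits. Among those above background on all 6 arrays it was 15 of 25, against 30.2% of such genes. The HCC827 control array is also the one that the erlotinib array of that line was set against, so the high control signals and the low differences with erlotinib in HCC827 are not independent.

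POLR3G had 8.74 in the HCC827 control and was under background in PC-9 and H322, so no span is given. Among subunits above background on all 3 control arrays POLR1E had the widest span, 2.86, from 7.78 in PC-9 to 10.63 in HCC827, followed by POLR3D with 2.51, from 7.95 in H322 to 10.46 in HCC827. Other subunits were highest elsewhere. POLR2L was lowest in PC-9, at 10.21, and highest in H322, at 12.48. POLR2J and POLR2J3 were highest in PC-9, at 15.48 and 14.14, and lowest in H322, at 13.87 and 11.84. POLR2B and POLR2E differed least, by 0.16 and 0.22.

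Factors that work with each enzyme were read from lists of textbook members. Of 11 measured Pol I factors 0 passed in limma, where 3 had an unadjusted p under 0.05 beside 14.4% of all genes, and the list had a median of 0.07 in PC-9 and -0.15 in HCC827. RRN3, which brings growth signals to Pol I, had 10.84 with erlotinib against 11.21 in the control of PC-9, and 10.37 against 11.18 in HCC827. Its mean was -0.59 ± 0.19 (limma adjusted p = 0.213), and with EGF it had 10.87 against 10.36 in the H322 control. TAF1A, of the Pol I selectivity factor, had -0.73 ± 0.28 with 3 of 6 arrays above background, and the topoisomerase gene TOP2A had 0.48 ± 0.13 (limma adjusted p = 0.298 and 0.134). Both PC-9 arrays of TAF1A were under background, at 6.31 with erlotinib and 7.31 in the control. In HCC827, with both arrays above it, TAF1A had -0.46.

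Of 19 Pol III factors 0 passed in limma, where 2 had an unadjusted p under 0.05 (14.4% of all genes), and the list had a median of -0.04 in PC-9 and -0.07 in HCC827. MAF1, the repressor of Pol III, had 13.48 with erlotinib against 13.19 in the control of PC-9, and 12.51 against 11.72 in HCC827. Its mean of 0.54 ± 0.16 did not pass (limma adjusted p = 0.188). GTF3C3, of the TFIIIC factor, had 0.66 ± 0.22, and SNAPC2, of the complex for small nuclear RNA promoters, had 0.36 ± 0.24, without passing (limma adjusted p = 0.218 for GTF3C3 and 0.582 for SNAPC2).

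Of 17 Pol II initiation factors 0 passed in limma, where 2 had an unadjusted p under 0.05 (14.4% of all genes), with medians of 0.14 in PC-9 and -0.03 in HCC827. GTF2B, which encodes TFIIB, had 0.49 ± 0.16, the TFIIH kinase CDK7 had 0.46 ± 0.18 and GTF2F1, a TFIIF subunit, had 0.38 ± 0.20 (limma adjusted p = 0.215, 0.316 and 0.467). Of 19 pausing and elongation factors 3 had an unadjusted p under 0.05 in limma, beside 14.4% of all genes. After adjustment 1 of the 19 passed, and it fell, where 0.916% of all genes were called lower. This was ELL2, a subunit of super elongation complexes, with 12.58 with erlotinib against 13.87 in the control of PC-9, and 13.11 against 14.08 in HCC827. ELL2 fell by 1.13 ± 0.14 (limma adjusted p = 0.0182), and in H322 it had 12.27 with EGF against 11.86 in the control. Its result in each alternative fit is not given here. Over all genes limma called 0 with no replicate block and 1 with no trend. RTF1 of the PAF1 complex and the elongation factor SUPT6H had 0.39 ± 0.15 and 0.37 ± 0.16 without passing (limma adjusted p = 0.283 and 0.346).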

How the data were processed

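Total RNA was measured on 6 arrays, grouped by their titles. The authors deposited linear intensities per probe set; the submitters' processing notes name Affymetrix Expression Console. How background, summarisation and scaling were done is not stated in those notes. Array medians of 148 to 157 show a common scale, on which a shift of most genes could not be seen.

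Here log2(value + 1) was computed; differences of dim genes are understated by it. The design allowed for log2 input, but the values were linear. Of 24351 probe sets 17709 had 1 gene symbol, all matched in RefSeq with 0 changed, and the brightest was kept for 20 symbols with several. A fold against an array under background is a bound, set at that background.

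Erlotinib was tested with limma 3.58.1 in R 4.3.3: lmFit and eBayes with a trend, cell line as a block, two-sided, Benjamini-Hochberg over all named genes at 0.05. Pairing comes from the line itself; treated and control arrays correlated across genes at 0.991 (PC-9) and 0.988 (HCC827). With 1 residual degree of freedom and 6.58 added from other genes, p-values and SE rest mostly on other genes. The labels do not say that cultures were separate, so p-values cover only the spread between these samples.

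Named in full were called subunits and, by enzyme, up to 3 a side with erlotinib and 2 with EGF among those above background, then list genes that passed or had the 3 largest mean changes. POLR1G, POLR3G and the spans between control arrays were described after their values were seen. Members and lists were chosen with earlier results of these data known. The protein identity of the POLR2J and POLR3G copies was not computed here.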

Additional observations from a re-analysis of the deposited data

Results flagged for a closer look

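Opposite signs with erlotinib in the 2 EGFR-mutant lines, each at least 1.1-fold and with all 4 arrays above background, brought 3 subunits here. That limit was chosen after the data were seen, and genes outside the subunits were not counted by it. Without limits on fold or background, 9 of 30 subunits and 7147 of 17687 named genes had opposite signs. POLR1E had 0.24 in PC-9 and -1.42 in HCC827. POLR3K had 0.15 in PC-9 and -0.97 in HCC827. POLR2I had -0.35 in PC-9 and 0.18 in HCC827. With 1 pair of arrays in each line the difference between lines was not tested.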

How the results depend on the processing

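The number of genes that limma called with erlotinib was 262, and it varied with the model and scale: 1 with no trend, 0 with no replicate block (186 with an unadjusted p under 0.05), 166 with an offset of 16, 96 among genes above background on at least 1 array, 636 with centred arrays, 954 under quantile normalization and 1115 with dim signals raised. The cause was not tested. Of the subunits 2 were called by limma, 0 with no trend, 0 with the offset of 16 and 0 among genes above background (6, 6 and 5 with an unadjusted p under 0.05), 0 with no replicate block (0 unadjusted), 1 (POLR1A) with probe sets averaged, 3 with centred arrays, 4 under quantile normalization and 3 with dim signals raised. POLR1A was called in 4 of 8 alternative fits and POLR1B in 2, with limma adjusted p from 8.91e-05 to 1 and from 0.00376 to 1. POLR2A passed in 3, with 0.000204 to 1, and POLR3D in 2, with 0.0227 to 1. The mean difference of POLR2E was -0.000539 with centred arrays, against 0.03.

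Genes past 2-fold with EGF numbered 133, and 35, 33 and 20 with the offset of 16, among genes above background and with dim signals raised. With dim signals raised the Pol III median in H322 was -0.05. Leaving out PC-9 or HCC827 leaves 1 pair of arrays and no test. The medians then ranged from -1.16 to -0.43 for Pol I, from 0.01 to 0.11 for Pol II, from -0.67 to -0.04 for Pol III and from -0.46 to 0.04 for the subunits shared by Pol I and Pol III. With dim signals raised the Pol I median with erlotinib, averaged over the lines, was -0.50, against -0.79, a move of over 1.5 times. With erlotinib every median by enzyme, Pol I included, moved by less than the larger of 0.1 and the spread between the lines. The subunits common to all enzymes had -0.18 in each line, and their average over the lines was -0.21 with centred arrays. With EGF the other medians moved by less than 0.1. Signal over background limits POLR1B, POLR1G, POLR2J4, POLR3G and POLR3GL.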
